A study of Homo sapiens with 9 samples.

Results

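The genes described here are those whose mRNA level went down in order with the level of GPX3, from control cells to cells with a milder and then a deeper knockdown. They were chosen from their measured values. A gene was taken if it is annotated as protein-coding, had a mean of at least 3 CPM (its count per 1000000 counts of the library) in the control libraries, and had no overlap between the 3 groups. The lowest control library had to lie above the highest sh76 library, and the lowest sh76 library above the highest sh78 library. The log2 ratio of mean control CPM to mean sh78 CPM had to be at least 0.4, and GPX3, GDF15 and KLK6 were left out by name. This gave 49 genes out of 11630 protein-coding genes at that CPM minimum and 58735 genes in the count table.

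RNA was sequenced from OVCAR3, an established human ovarian carcinoma cell line, after 72 h in culture, to learn what GPX3 does in these cells. All 9 libraries carried a short hairpin RNA, a transcript that the cell cuts into a guide that lowers matching mRNAs. The control group held 3 libraries with a scramble hairpin (genotype given as WT), and each of 2 hairpins against GPX3, shRNA#76 (sh76) and shRNA#78 (sh78), had 3 libraries (genotype given as knock-down). All come from 1 cell line, and the vectors, the number of transductions and whether clones were picked are not given in the sources used here. Nothing says that the replicates came from separate cultures, so the errors below measure the spread between these libraries, which may be technical. Each depth of knockdown was reached with 1 hairpin, so the depth of knockdown and other differences between the hairpins cannot be told apart.

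GPX3 encodes glutathione peroxidase 3, a selenoprotein that cells secrete and that reduces peroxides outside the cell. Hairpins that lower 1 mRNA to different levels are commonly used to look for other genes whose levels are ordered in the same way. Such a set can mix genes from unrelated pathways, since its genes share only the conditions they were chosen by. Here these are the order of 3 non-overlapping groups and the limits given above. Among the genes found here are proteases of the kallikrein family, genes of the integrated stress response (the program that the factor ATF4 runs when translation is restrained), endoplasmic reticulum genes and enzymes of amino acid and aldehyde metabolism.

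GPX3 itself (ENSG00000211445, chromosome 5, 151020438 to 151028993, plus strand, GRCh38) had 173.6, 109.6 and 115.0 CPM in scramble replicates 1 to 3. It had 57.9, 55.5 and 54.6 CPM with sh76 and 35.6, 28.2 and 27.9 CPM with sh78. The 3 groups did not overlap, and mean GPX3 was 42.2% of the scramble level with sh76 and 23.1% with sh78. KLK6, a kallikrein-related peptidase, met every condition as well, with 40.3% of its scramble mean left with sh76 and 18.9% with sh78. GDF15, the secreted stress protein named in the title of the study, had 26.5% and 12.8% left. Its groups were not in order throughout, because the lowest sh76 library had 1.82 CPM and the highest sh78 library 2.38 CPM.

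Among the 11630 protein-coding genes, 98 had their 3 groups separated in the order scramble, sh76, sh78 from high to low, which is 0.843% of them. The rule used this order, so the share is a description. Each of the other 5 orders of non-overlapping groups occurred too, in 48 to 74 genes. With the added condition that sh78 differed from scramble by at least 0.4 on the log2 scale, the order from scramble down to sh78 held 51 genes, and the reverse order held 31. The 51 genes are the 49 members with GPX3 and KLK6.

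**Figure D1:**
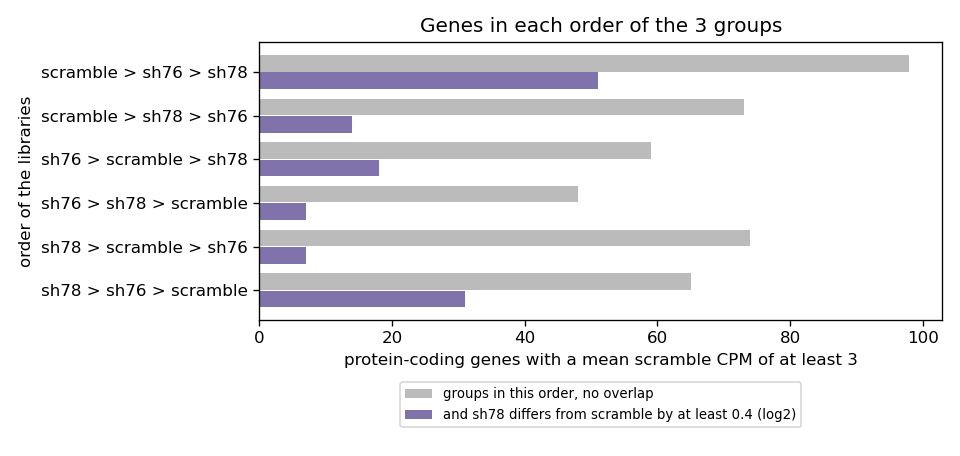
Number of protein-coding genes with a mean scramble CPM of at least 3 (x axis) in each of the 6 orders of non-overlapping groups (y axis), before (grey) and after (purple) a log2 difference of at least 0.4 between sh78 and scramble is asked for. The order scramble, sh76, sh78 holds 98 genes, and 51 of them pass the second condition.

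The members spanned a wide range of level and size of change. The mean scramble CPM ran from 3.10 for MYEOV to 1064 for CTSB, with a median of 37.1, and 16 members had at least 100 CPM. The log2 ratio of scramble to sh78 ran from 0.40 for ANAPC7 to 2.80 for AQP5, with a median of 0.66. It was at least 1 in 12 members, from 0.6 to under 1 in 16 and under 0.6 in 21. Of the members, 2 (AQP5 and MYEOV) were reduced by more than GPX3 itself. Just inside the log2 limit of 0.4 lay ANAPC7 (0.404), JPT2 (0.406) and RCN1 (0.413), and just outside it CARS (0.398), LSM10 (0.386) and HACD2 (0.371). Just inside the CPM minimum of 3 lay MYEOV (3.10), LDLRAD1 (3.46) and RYR2 (4.06), and just outside it COL11A1 (2.30), RD3 (2.22) and FER1L6 (1.97).

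**Figure D2:**
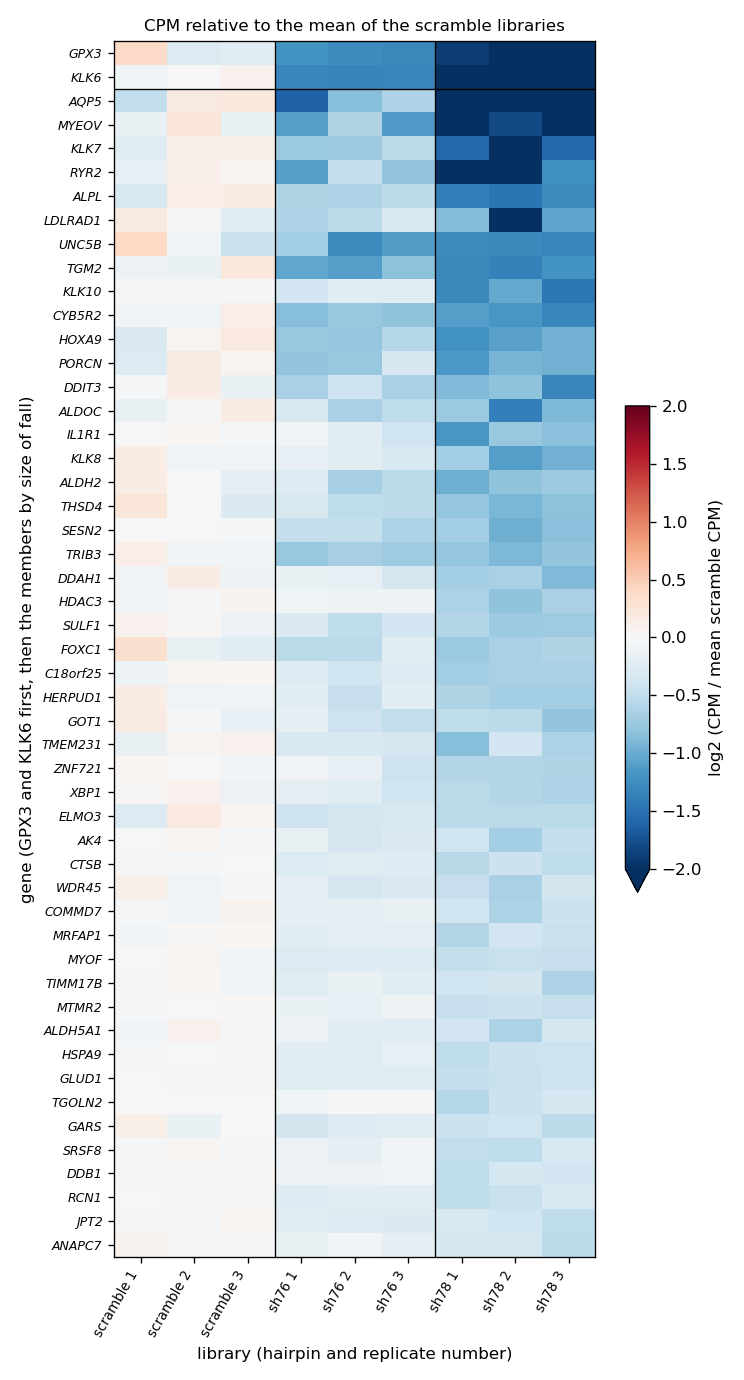
Colour shows the log2 ratio of CPM in a library (x axis, 3 libraries per group) to the mean of the scramble libraries for GPX3, KLK6 and the 49 members (y axis, sorted by size of change), with the scale ending at -2. The members' median is between -0.33 and -0.27 in the sh76 libraries and between -0.66 and -0.63 in the sh78 libraries.

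How far the groups stood apart varied. The gap between groups is the distance from the lowest value of the higher group to the highest value of the lower group, as a percent of the latter. It was under 5% at one or both steps in 24 of the 49 members. GOT1 had the narrowest first gap, with 60.7 CPM in its lowest scramble library against 60.2 CPM in its highest sh76 library. UNC5B had the narrowest second gap, with 7.80 CPM in its lowest sh76 library against 7.78 CPM in its highest sh78 library. Only MYEOV and KLK7 had gaps of at least 20% at both steps. Leaving out a library loosens the condition that groups do not overlap, so the rule then takes more genes: 76 without scramble replicate 1 and 76 without sh76 replicate 1. Of the 49 members, 47 and 49 stayed in those cases, and 46 to 49 over all 9 libraries left out in turn. A member can then be lost only through the CPM minimum or the log2 limit, and without an sh76 library none can be lost. The number that stayed is thus nearly fixed by the rule and says little of stability.

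The fit over all genes gave the members' errors. Counts were compared with edgeR's quasi-likelihood test over 17023 genes, and a gene was called at a Benjamini-Hochberg adjusted p under 0.05. The rule used the same contrasts, so the counts are descriptions and no p is given for a member. All 49 members were called lower with sh78 against scramble, where 2.56% of all genes tested were. With sh76 against scramble 19 members were called lower (2.16% of all genes), and with sh78 against sh76 16 members were (1.72% of all genes). No member was called higher in any of the 3, where 1.43%, 1.85% and 1.97% of all genes were, in the order sh76, sh78 and between the hairpins. The median log2 fold change of the members was -0.29, -0.66 and -0.31 in sh76 against scramble, sh78 against scramble and sh78 against sh76. The median of all genes tested was within 0.01 of 0 in each.

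The calls of members at single steps changed with the libraries and the model used, and so did the calls over all genes. Same-numbered replicates of different groups deviated from their group means together, so the numbers were read as shared batches. With the replicate number as a block, 36 members were called lower with sh76 (10.7% of all genes), 49 with sh78 (10.1%) and 41 between the hairpins (8.62%). The block called no member higher, and of all 17023 genes it called 1639, 1666 and 1650 higher in the same order. Without a block, leaving out 1 library changed the sh76 count of 19 to 9 (scramble replicate 2), 9 (scramble replicate 3), 12 (sh76 replicate 1), 4 (sh76 replicate 2) or 11 (sh76 replicate 3). In the same fits the count lower over all genes went from 367 to 215, 220, 279, 157 and 220. The count of 16 between the hairpins became 10 without sh76 replicate 2, without sh76 replicate 3 or without sh78 replicate 1. Over all genes the count lower between the hairpins went from 293 to 141, 172 and 158 in these fits. The sh78 count stayed between 43 and 49 in all 9 such fits, and 40 members were called in each of them.

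The 12 greatest reductions included channels, receptors and enzymes of different kinds. AQP5 (ENSG00000161798, chromosome 12, 49961870 to 49965681, plus strand) encodes aquaporin 5, a water channel of secretory epithelia. Its CPM was 9.28, 14.8 and 15.2 with scramble, 4.28, 7.26 and 8.53 with sh76, and 2.29, 1.43 and 1.93 with sh78. Scramble replicate 1 was the low one of its group and came close to the highest sh76 library, while all sh78 libraries lay far below. The mean left was 51.1% with sh76 and 14.4% with sh78, and the edgeR log2 fold change was -0.96 ± 0.25 (SE) and -2.79 ± 0.30.

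MYEOV (ENSG00000172927, chromosome 11, 69294138 to 69367726, plus strand) is named for its overexpression in myeloma. It had 2.83, 3.65 and 2.81 CPM with scramble, 1.45, 2.05 and 1.41 with sh76 and 0.599, 0.887 and 0.514 with sh78. These last values rest on 11, 13 and 8 counts, so they carry a sizeable counting error. RYR2 (chromosome 1, 237042205 to 237833988, plus strand), a calcium release channel of the endoplasmic reticulum best known from heart muscle, was as thinly covered. Its CPM was 3.61, 4.36 and 4.22 with scramble, 1.89, 2.92 and 2.34 with sh76, and 0.979, 0.955 and 1.74 with sh78. In RYR2 the highest sh78 library lay just under the lowest sh76 library. LDLRAD1 (chromosome 1, 54007299 to 54018186, minus strand), a protein with low-density lipoprotein receptor class A domains, had a mean of 3.46 ± 0.505 CPM (SD, n = 3) with scramble, 2.47 ± 0.262 with sh76 and 1.40 ± 0.688 with sh78. Its lowest library, sh78 replicate 2, held 9 counts.

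ALPL (ENSG00000162551, chromosome 1, 21509372 to 21578412, plus strand) encodes tissue-nonspecific alkaline phosphatase, an enzyme on the outer cell surface. It had 29.1, 39.6 and 40.1 CPM with scramble, 23.8, 23.6 and 25.1 with sh76 and 13.9, 13.2 and 14.97 with sh78. Both steps were of like size, with 66.7% of the scramble mean left with sh76 and 38.6% with sh78. ALPL was called in all 3 comparisons, as were KLK7, C18orf25, XBP1 and CTSB.

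UNC5B, TGM2 and CYB5R2 had most of their reduction in the first step. UNC5B (chromosome 10, 71212570 to 71302864, plus strand), a netrin receptor, had 24.8, 17.6 and 14.0 CPM with scramble, 11.8, 7.80 and 8.63 with sh76, and 7.78, 7.64 and 7.52 with sh78. Its scramble libraries were widely spread, and the sh78 libraries almost identical. TGM2 (chromosome 20, 38127387 to 38166578, minus strand) encodes transglutaminase 2, which crosslinks proteins. It had 54.3, 53.9 and 68.1 CPM with scramble, 28.6, 27.3 and 33.4 with sh76 and 24.1, 23.0 and 25.8 with sh78. Scramble and sh76 were separated widely, sh76 and sh78 narrowly. CYB5R2, a cytochrome b5 reductase, went from 13.2 ± 1.07 CPM (SD, n = 3) to 7.58 ± 0.220 with sh76 and 5.81 ± 0.423 with sh78.

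HOXA9 (chromosome 7, 27162435 to 27175180, minus strand), a homeobox transcription factor, had 10.7, 13.5 and 15.03 CPM with scramble, 7.73, 7.65 and 8.81 with sh76, and 5.66, 6.14 and 6.75 with sh78. PORCN (chromosome X, 48508962 to 48520814, plus strand), the acyltransferase that lipid-modifies Wnt proteins before secretion, had 9.79, 13.4 and 12.3 CPM with scramble. It had 6.85, 7.02 and 9.42 with sh76, and 5.33, 6.21 and 6.11 with sh78. For PORCN the highest sh76 library came within 3.93% of the lowest scramble library.

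**Figure D3:**
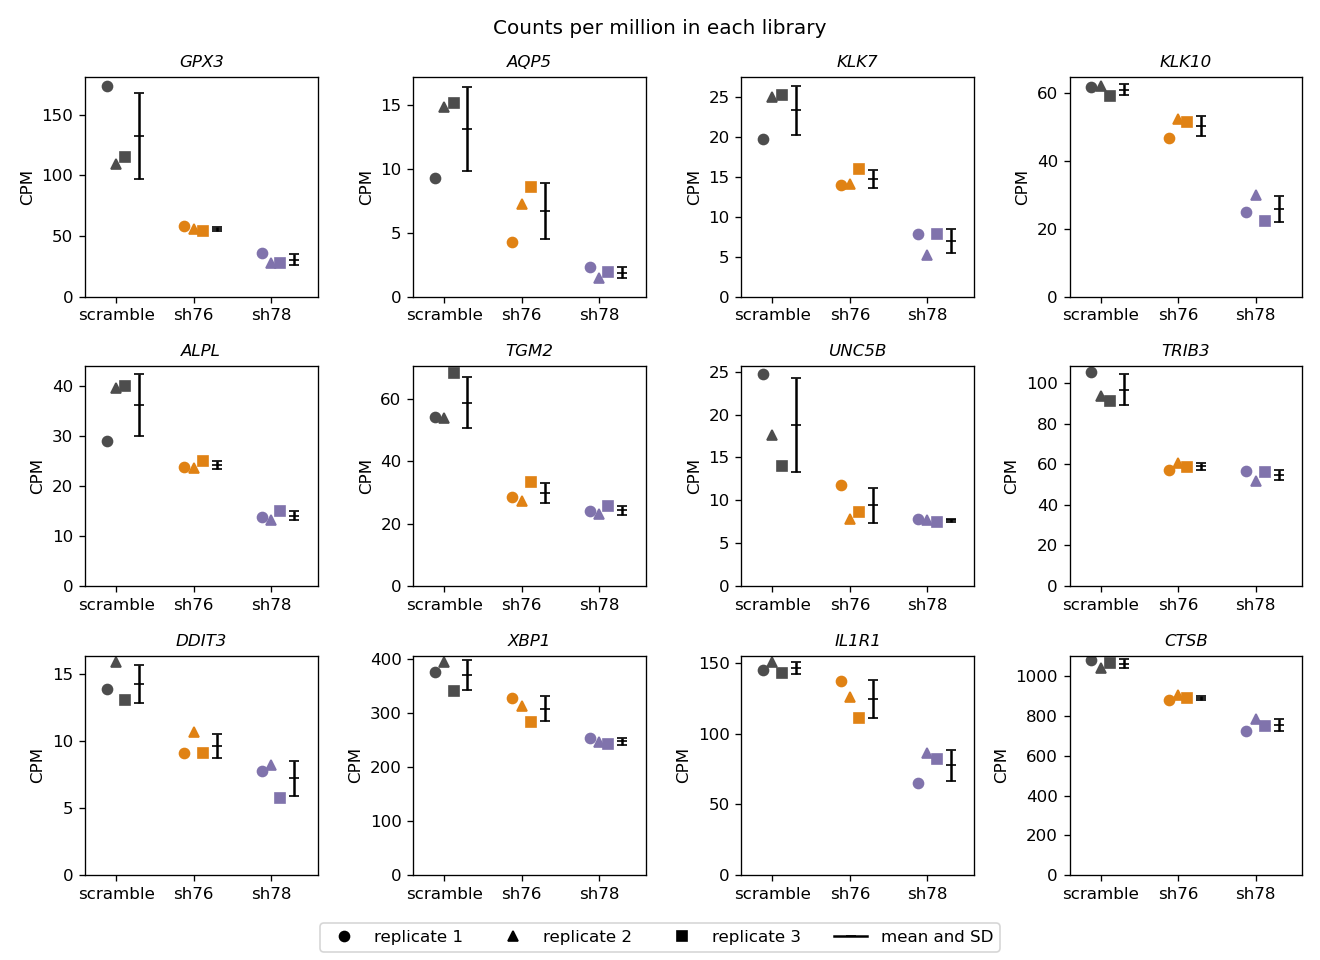
CPM (y axes, from 0) in each library of the 3 groups (x axes) for GPX3 and 11 members, with symbols for the replicate number and bars for mean and SD over 3 libraries. TGM2, UNC5B and TRIB3 step down mainly between scramble and sh76, KLK10 and IL1R1 mainly between sh76 and sh78, and ALPL, XBP1 and CTSB about evenly.

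The kallikrein-related peptidases, secreted serine proteases encoded side by side on chromosome 19, gave 3 members: KLK7, KLK8 and KLK10. Together with KLK6 they lie within 50958631 to 51020175, and no other protein-coding gene with at least 3 CPM lies between them. KLK7 (ENSG00000169035, 50976482 to 50984099, minus strand), a chymotrypsin-like protease that cleaves cell adhesion proteins of the skin, had 19.9, 25.02 and 25.3 CPM with scramble. It had 14.0, 14.1 and 16.0 with sh76, and 7.89, 5.25 and 7.90 with sh78. Its groups lay well apart at both steps, and the log2 fold change was -0.68 ± 0.15 (SE) with sh76 and -1.74 ± 0.16 with sh78.

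KLK10 (ENSG00000129451, 51012739 to 51020175, minus strand) had 61.7, 61.9 and 59.0 CPM with scramble, 46.8, 52.4 and 51.4 with sh76, and 24.9, 29.9 and 22.4 with sh78. KLK10 had its larger step second: 82.5% of the scramble mean was left with sh76 and 42.2% with sh78. KLK8 (50996007 to 51002711, minus strand), also known as neuropsin, had 22.1, 18.96 and 18.9 CPM with scramble, 17.9, 17.2 and 15.9 with sh76, and 12.5, 9.35 and 10.2 with sh78. Its scramble and sh76 groups nearly touched, whereas its sh78 group stood apart.

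Of the 14 kallikreins listed (KLK6 not among them), 7 were abundant enough to be tested. With sh76, 1 of the 7 was called lower (KLK7), with sh78 6 were, and between the hairpins 4 were, and none was called higher. Of all genes tested, 2.16%, 2.56% and 1.72% were called lower in the same order. The 7 include the members KLK7, KLK8 and KLK10, which the rule chose from these same contrasts, so the kallikrein counts are descriptions. The called genes that are no members were KLK5, KLK11 and KLK14 with sh78, and KLK5 between the hairpins. With the replicate block the counts lower were 5, 7 and 4. KLK5, a trypsin-like neighbour of KLK6 that is no member, differed in pattern. It had 344, 321 and 329 CPM with scramble, 341, 362 and 365 with sh76, and 168, 178 and 196 with sh78. In KLK5 the scramble and sh76 groups overlapped, and the log2 fold change was 0.09 with sh76 and -0.88 with sh78, the latter called lower. KLK11, KLK13 and KLK14 were below the CPM minimum of the rule, and in each the sh76 and sh78 groups overlapped.

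**Figure D4:**
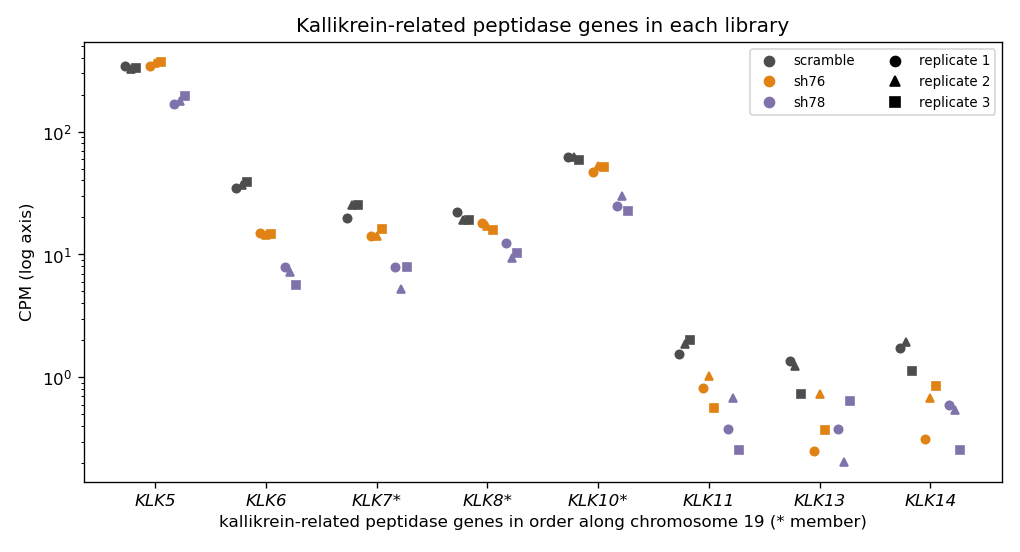
CPM on a log axis (y axis) in each library for 8 kallikrein genes in their order along chromosome 19 (x axis), with colours for the groups and symbols for the replicate number. KLK7, KLK8 and KLK10 step down in order like KLK6, while the sh76 libraries of KLK5 lie at 341 to 365 CPM beside 321 to 344 CPM in scramble.

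Genes of the integrated stress response made up the next group, with DDIT3, TRIB3 and SESN2. DDIT3 (ENSG00000175197, chromosome 12, 57516588 to 57521737, minus strand) encodes CHOP, a transcription factor induced by stress of the endoplasmic reticulum. It had 13.8, 15.8 and 13.1 CPM with scramble, 9.12, 10.7 and 9.10 with sh76, and 7.73, 8.19 and 5.72 with sh78. An exon of DDIT3 overlaps MARS, a methionyl-tRNA synthetase gene on the other strand with a mean of 283 CPM over the 9 libraries, and the libraries carry no strand. MARS was itself lower by 0.28 ± 0.06 (SE, log2) with sh76 and 0.33 ± 0.06 with sh78, and its part in the DDIT3 counts was not tested.

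TRIB3 (ENSG00000101255, chromosome 20, 362835 to 397559, plus strand), a pseudokinase that CHOP and ATF4 induce, had 105.7, 93.6 and 91.3 CPM with scramble. It had 57.3, 60.9 and 58.9 with sh76, and 56.6, 51.9 and 56.2 with sh78. TRIB3 had the largest share of its log2 reduction in the first step of all members, 87.2%, and its hairpin groups nearly touched. SESN2 (chromosome 1, 28259527 to 28282491, plus strand), the leucine sensor sestrin 2, had 31.4, 31.3 and 30.6 CPM with scramble, 22.3, 22.4 and 19.97 with sh76, and 19.4, 15.9 and 17.5 with sh78. Its first gap was wide and its second was 3.12%.

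The rest of the pathway was read from a list of 30 genes that includes these members. Of its 29 genes tested, 19 were called lower with sh76, 19 with sh78 and none with sh78 against sh76, with no gene higher. Over all genes tested, 2.16%, 2.56% and 1.72% were called lower in the same order. The rule chose DDIT3, TRIB3 and SESN2 from these contrasts, so the counts of the list are descriptions. Between the hairpins 23 of the 29 had a negative log2 fold change. With the replicate block the counts lower were 26, 29 and 4, where 10.7%, 10.1% and 8.62% of all genes were called lower. The median log2 fold change of the list was -0.49 with sh76, -0.59 with sh78 and -0.09 between the hairpins. PSAT1, an enzyme of serine synthesis, had a log2 fold change of -0.71 ± 0.07 (SE) with either hairpin. DDIT3, SESN2 and TRIB3 were not called between the hairpins without the block, and DDIT3 and SESN2 were with it. GARS (ENSG00000106105, chromosome 7, 30594681 to 30634033, plus strand), the glycyl-tRNA synthetase, had 198.8, 168.0 and 183.2 CPM with scramble, 141.9, 153.8 and 156.9 with sh76, and 136.5, 139.1 and 128.0 with sh78. Of 20 cytosolic aminoacyl-tRNA synthetases tested, 6 were called lower with sh76, 9 with sh78 and none between the hairpins, and none was called higher. These stand beside the same shares of all genes, and GARS, a member, is among the 20. With the block, 9, 10 and 2 were called lower, beside the block's shares of all genes given above. The block called 1 synthetase higher between the hairpins, where it called 1650 of all 17023 genes higher.

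The endoplasmic reticulum gave XBP1 and HERPUD1. XBP1 (ENSG00000100219, chromosome 22, 28794555 to 28800597, minus strand) is a transcription factor of the unfolded protein response, whose mRNA is spliced when that response is active. It had 376.7, 395.4 and 340.7 CPM with scramble, 328.3, 313.3 and 282.7 with sh76, and 254.5, 246.2 and 242.8 with sh78. Both steps of XBP1 were nearly equal, with log2 fold changes of -0.28 ± 0.06 (SE) for sh76 against scramble and -0.31 ± 0.06 for sh78 against sh76. Gene counts do not separate its spliced from its unspliced form. HERPUD1 (chromosome 16, 56932048 to 56944863, plus strand), a membrane protein of the degradation machinery for misfolded proteins, had 45.6, 38.7 and 38.9 CPM with scramble. It had 35.0, 29.8 and 35.6 with sh76, and 27.0, 25.7 and 25.4 with sh78. Of 20 chaperone and unfolded protein response genes tested, 1 was called lower with sh76 (XBP1), 3 with sh78 and 1 between the hairpins (XBP1), and none higher. With the block the counts lower were 4, 12 and 8. Over all genes tested, 2.16%, 2.56% and 1.72% were called lower in the same order, and 10.7%, 10.1% and 8.62% with the block. The 20 include the members XBP1 and HERPUD1, so these counts are descriptions. RCN1, a calcium-binding protein of the same compartment, had 113.6 ± 2.75 CPM (SD, n = 3) with scramble, 96.5 ± 1.82 with sh76 and 85.3 ± 6.53 with sh78.

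Promoter sequences of the members were searched for the letters that stress factors and common promoter factors bind. RefSeq promoter windows (GRCh38.p14) ran from 250 bases before to 50 bases after a transcript start. They were matched by gene ID, or failing that by symbol or synonym. This gave 69 windows for 40 of the 49 members, and 14240 windows for 9616 protein-coding genes at the same CPM minimum. A gene was counted if any of its windows held the letters on either strand. Members had more windows per gene, and the shares were not corrected for this. The sites TGATGCAA and TGATGNAAT, which the stress factors ATF4 and CHOP bind with C/EBP partners, overlap. Either was found in 3 members (7.5%), against 1.32% of the expressed genes and 2.00% of all 27305 genes with a RefSeq promoter window. The 3 were HERPUD1, GOT1 and GARS. They are printed below with the 250 bases before the start, on the gene's strand, and with the matched letters in capitals.

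HERPUD1, chr16:56931892-56932141, plus strand, match at -176 to -169 from the start: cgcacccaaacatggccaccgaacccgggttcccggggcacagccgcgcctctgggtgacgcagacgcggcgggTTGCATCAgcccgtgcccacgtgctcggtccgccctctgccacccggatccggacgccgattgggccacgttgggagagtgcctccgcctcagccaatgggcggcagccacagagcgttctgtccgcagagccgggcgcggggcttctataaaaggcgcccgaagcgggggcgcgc
GOT1, chr10:99430625-99430874, minus strand, match at -198 to -191: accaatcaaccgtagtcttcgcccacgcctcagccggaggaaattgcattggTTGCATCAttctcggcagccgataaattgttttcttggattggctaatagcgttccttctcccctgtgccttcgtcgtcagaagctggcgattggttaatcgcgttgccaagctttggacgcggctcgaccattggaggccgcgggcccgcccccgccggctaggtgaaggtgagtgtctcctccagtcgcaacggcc
GARS, chr7:30594628-30594877, plus strand, match at -34 to -26: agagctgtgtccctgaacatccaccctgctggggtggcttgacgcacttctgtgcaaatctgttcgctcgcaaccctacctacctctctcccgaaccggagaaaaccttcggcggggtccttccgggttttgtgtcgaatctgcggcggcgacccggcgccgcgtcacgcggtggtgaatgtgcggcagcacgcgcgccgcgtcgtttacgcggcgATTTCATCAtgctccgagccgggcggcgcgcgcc

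In each of these promoters the match lies on the strand opposite to the gene. Counted from the RefSeq start of the window, it was farther in HERPUD1 and GOT1 than in GARS. These RefSeq starts are not the gene boundaries given in this report. The GOT1 window lies inside the gene, which ends at 99431569. The HERPUD1 and GARS windows span the gene starts 56932048 and 30594681, and the GARS match falls inside the gene. The other letters searched were found in these shares of the members and of the expressed genes. The AP-1 site TGANTCA was in 3 members (7.5%, against 6.86%), the antioxidant response core TGACNNNGC in 9 (22.5%, against 19.6%) and the E-box CACGTG in 7 (17.5%, against 12.7%). The CCAAT box was in 18 (45.0%, against 43.6%), the GC box GGGCGG in 31 (77.5%, against 78.5%) and the TATA box TATAAA in 8 (20%, against 8.06%). The cyclic AMP element TGACGTCA was in none of the members and in 3.91% of the expressed genes. The median GC content was 65.0% in both sets. A match describes these letters in this window and does not show binding.

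Enzymes of amino acid, aldehyde and energy metabolism formed another group. GOT1 (chromosome 10, 99396870 to 99431569, minus strand), the cytosolic aspartate aminotransferase, had 76.9, 67.5 and 60.7 CPM with scramble, 60.2, 51.4 and 48.8 with sh76, and 48.0, 46.9 and 39.5 with sh78. In every group replicate 1 was the highest and replicate 3 the lowest, and the groups stayed apart by gaps of 0.772% and 1.71%. GLUD1, the mitochondrial glutamate dehydrogenase, had 244.7, 242.4 and 250.6 CPM with scramble, 207.7, 208.9 and 208.4 with sh76, and 176.6, 179.8 and 184.0 with sh78. Its replicates were far closer to each other than its groups. The GLUD1 exons overlap SHLD2 on the other strand and the gene has 3 pseudogenes with counts, so part of its reads may be assigned elsewhere.

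Of the 15 aldehyde dehydrogenase genes at 3 CPM or more, ALDH2 and ALDH5A1 were members. ALDH2, the mitochondrial enzyme that oxidises acetaldehyde, had 24.4, 21.96 and 19.4 CPM with scramble, 18.2, 13.9 and 15 with sh76, and 11.1, 12.5 and 13.2 with sh78. ALDH5A1, the succinate-semialdehyde dehydrogenase, had 28.8 ± 1.63 CPM (SD, n = 3) with scramble, 25.2 ± 1.05 with sh76 and 21.1 ± 2.24 with sh78. That reduction with sh78 was larger in ALDH2, with 56.0% of the scramble mean left, than in ALDH5A1, with 73.2% left.

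ALDOC, a fructose-bisphosphate aldolase, had 13.8, 15.1 and 17.0 CPM with scramble, 12.4, 9.74 and 10.7 with sh76, and 9.20, 5.94 and 8.23 with sh78. Of 20 glycolysis genes tested, none was called lower with sh76, 6 were with sh78 and 2 were between the hairpins, while 1, 1 and 0 were called higher. Over all genes tested, 2.16%, 2.56% and 1.72% were called lower and 1.43%, 1.85% and 1.97% higher. With the block the counts lower were 3, 12 and 12, and the counts higher 3, 2 and 1. Of all 17023 genes tested, the block called 1828, 1722 and 1467 lower and 1639, 1666 and 1650 higher. AK4, a mitochondrial adenylate kinase, had 122.2 ± 3.17 CPM (SD, n = 3) with scramble, 102.4 ± 6.73 with sh76 and 85.8 ± 8.67 with sh78. DDAH1, which breaks down the nitric oxide synthase inhibitor dimethylarginine, had 104.1 ± 9.67, 89.6 ± 7.10 and 62.6 ± 5.18 CPM. HSPA9, the mitochondrial Hsp70 chaperone, had 328.6 ± 6.16, 283.4 ± 9.11 and 240.5 ± 8.35 CPM, and TIMM17B, a subunit of the inner membrane protein import channel, 32.4 ± 1.23, 28.3 ± 0.919 and 23.6 ± 2.10 CPM.

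Some members belong to the lysosome, the secretory route or the cell surface. CTSB, the lysosomal protease cathepsin B, was the member with the highest level, also per length (143.1 FPKM, a deposited level scaled for gene length and library size, in scramble). It had 1083, 1040 and 1068 CPM with scramble, 881.5, 904.2 and 888.3 with sh76, and 725.1, 786.2 and 750.7 with sh78. Groups of CTSB were clearly separated, with 83.8% of the scramble mean left with sh76 and 70.9% with sh78.

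MYOF (chromosome 10, 93306429 to 93482317, minus strand), or myoferlin, a protein of membrane repair and vesicle fusion, had 373.4, 389.1 and 359.9 CPM with scramble. It had 310.0, 312.0 and 309.3 with sh76, and 269.3, 274.8 and 272.0 with sh78. TGOLN2, an integral protein of the trans-Golgi network, had 258.2, 258.9 and 260.7 CPM with scramble, 243.7, 255.9 and 252.3 with sh76, and 173.8, 192.0 and 203.8 with sh78. Only 10.9% of its log2 reduction lay in the first step, the smallest share of all members.

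THSD4, a secreted protein of the extracellular matrix, had 146.3, 125.1 and 101.3 CPM with scramble, 99.7, 87.7 and 86.1 with sh76, and 72.4, 66.1 and 70.5 with sh78. Its scramble libraries differed by more among themselves than its sh76 group did from the nearest of them. SULF1, an extracellular enzyme that removes sulfate groups from heparan sulfate, had 32.7 ± 2.30 CPM (SD, n = 3) with scramble, 24.9 ± 1.90 with sh76 and 20.5 ± 1.03 with sh78. IL1R1, the signalling receptor for interleukin 1, had 145.3, 151.1 and 143.0 CPM with scramble, 137.6, 125.8 and 110.9 with sh76, and 65.5, 86.1 and 81.9 with sh78. Most of its reduction was in the second step, and its sh78 libraries lay well below the others.

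Members that act in the nucleus, beside HOXA9, DDIT3 and XBP1, included HDAC3 and FOXC1. HDAC3 (chromosome 5, 141620876 to 141636870, minus strand), the catalytic histone deacetylase of the NCoR and SMRT corepressors, had 50.7, 52.0 and 55.4 CPM with scramble, 49.9, 49.1 and 48.9 with sh76, and 34.2, 30.2 and 33.7 with sh78. Its scramble and sh76 groups were 1.58% apart and its hairpin groups 43.0% apart, so the order rests on the second step. FOXC1, a forkhead transcription factor, had 39.6 ± 8.36 CPM (SD, n = 3) with scramble, 29.4 ± 3.59 with sh76 and 24.96 ± 1.28 with sh78. DDB1, an adaptor of cullin ubiquitin ligases that takes part in DNA repair, had 336.1 ± 8.56, 311.9 ± 3.10 and 252.1 ± 14.1 CPM. ANAPC7, a subunit of the anaphase-promoting complex, had 37.4 ± 1.497, 34.2 ± 1.44 and 28.3 ± 1.94 CPM. The zinc finger gene ZNF721 had 66.4% of its scramble mean left with sh78, and the splicing factor gene SRSF8 74.0%.

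The remaining 8 members lay between 63.2% and 75.5% of the scramble mean with sh78. C18orf25 had 63.2% left and the cilium gene TMEM231 65.6%. ELMO3, of the engulfment and cell motility family, had 69.0% left, the autophagy gene WDR45 71.3% and COMMD7 71.5%. MRFAP1 had 72.1% left, MTMR2, a phosphoinositide phosphatase, 73.1% and JPT2 75.5%.

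The shape of the reduction differed between members. For GPX3, 58.8% of the log2 difference between scramble and sh78 lay in the step from scramble to sh76. In the members this share ran from 10.9% to 87.2% with a median of 47.4%, and 11 members had a higher share than GPX3. It was above 50% in 22 members and below in 27. TRIB3, UNC5B (77.1%) and TGM2 (76.9%) had the largest first steps, and TGOLN2, HDAC3 (14.0%) and KLK10 (22.4%) the smallest. In the edgeR calls, 14 members were called with both hairpins and not between them, among them TGM2, UNC5B, TRIB3 and SESN2. A further 11 were called with sh78 and between the hairpins and not with sh76, among them AQP5, KLK8, KLK10, IL1R1 and HDAC3. The other members were called with sh78 alone (19) or in all 3 comparisons (5). These classes changed with the replicate block. Of the 14, 10 were then called between the hairpins, TGM2, SESN2 and DDIT3 among them, and of the 11, 6 were called with sh76, AQP5 and KLK10 among them. The classes were not tested against each other.

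**Figure D5:**
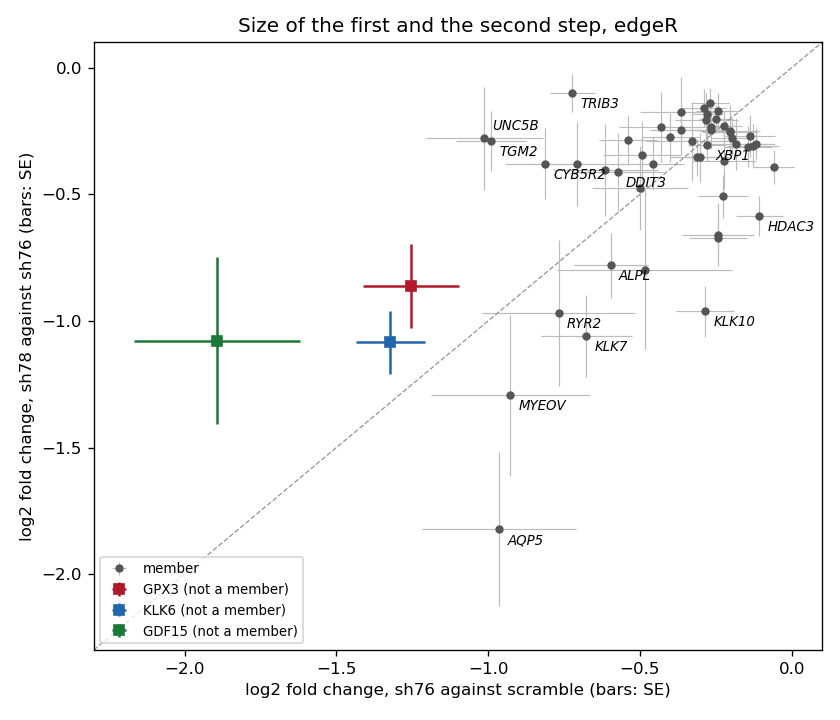
Log2 fold change of sh76 against scramble (x axis) and of sh78 against sh76 (y axis) from edgeR, with bars for the SE, for the 49 members (grey) and for GPX3, KLK6 and GDF15 (coloured squares). On the dashed line both steps are equal: TRIB3 (-0.72 and -0.10) lies far above it, KLK10 (-0.29 and -0.96) far below.

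The rule put the groups in order and set no order among the libraries of a group. It did use the lowest and highest library of a group, which favours genes with little spread between replicates. The shares below are thus shaped by the rule and are a description. GPX3 was highest in replicate 1 of every group (173.6, 57.9 and 35.6 CPM). Of the 49 members, 16 were highest in that library among the scramble libraries, 17 among the sh76 and 18 among the sh78 libraries. That is 51 of 147 values, or 34.7%. Of all protein-coding genes at the same minimum, 40.5%, 42.7% and 39.9% were highest there. In all 3 groups the members' share was below that of all such genes. With CPM scaled by TMM factors, 15, 15 and 13 members were highest in that library (30.6%, 30.6% and 26.5%), against 37.6%, 34.3% and 34.0% of all such genes.

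In the genome, 8 members lay within 1000000 bases of another member, in 3 intervals. The kallikreins form 1 of them. On chromosome X, between 48508962 and 49101170, PORCN, TIMM17B and WDR45 lay among 15 other protein-coding genes with at least 3 CPM, of which 1 was called lower with sh76, 1 lower with sh78 and 1 higher with sh78 against sh76. On chromosome 11, SRSF8 and MTMR2 lay between 95067197 and 95925315 with 4 other such genes. Of these ENDOD1 was called lower with sh78 and between the hairpins and the other 3 were not called. Exons of 19 members overlap another gene with counts, and in 7 that gene reaches at least 10% of the member's own CPM: TGM2, DDIT3, WDR45, TIMM17B, GLUD1, GARS and DDB1. For these, reads of both genes cannot be fully told apart.

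The libraries held 14652965 to 21327562 counts, and mitochondrial genes took 4.24% to 5.16% of them. All 11 markers listed for ovarian carcinoma epithelium had at least 1 CPM in scramble, so the labelled cell type was borne out by its markers. Their summed level was also ordered, at 12250 to 12980 CPM with scramble, 11260 to 11870 with sh76 and 10270 to 10580 with sh78. Of the 11 markers, 4 were called lower with sh78 (KRT8, KRT18, EPCAM and FOLR1) and none higher. The other 7 were not called, with KRT7, PAX8, MUC16 and WFDC2 at log2 fold changes above 0. With sh76, FOLR1 and PAX8 were called lower and none higher. Between the hairpins PAX8 was called higher and none lower, so single markers did not all follow the order of the sum. KRT8 had the highest level, at 5040 to 5825 CPM with scramble, 4396 to 5055 with sh76 and 3578 to 4087 with sh78, so it weighs most in the sum. The summed level of 6 fibroblast markers was 27.6 to 38.4, 31.4 to 55.5 and 35.0 to 46.7 CPM in the same order of groups. That of 6 leukocyte markers was 2.25 to 3.89, 3.66 to 4.43 and 3.69 to 4.90 CPM. For 5 endothelial markers it was 18.4 to 19.99, 19.2 to 23.96 and 23.5 to 31.9 CPM. Of these only KDR was called, higher with both hairpins, at 8.90 to 10.2, 12.1 to 14.8 and 16.2 to 21.0 CPM. The part of these shifts in the members' values was not tested. In bulk RNA, fewer cells that express a gene and less RNA per cell cannot be told apart.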

How the data were processed

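Gene counts and FPKM values (corrected for gene length and depth) for 58735 genes in 9 libraries were deposited by the authors. Per the submitters' processing notes, HISAT2 2.0.5, featureCounts 1.5.0-p3 and the genome build hg38 were used, and per the labels' protocols the libraries were poly-A selected and non-directional. All gene IDs matched GENCODE 29 (GRCh38) in name, start and end.

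The members and gene lists were chosen with earlier results of these data known. CPM is the deposited count over the column total. Deposited counts were fitted with edgeR 4.0.16 in R 4.3.3 over all 9 libraries (filterByExpr with minimum count 10 and minimum total 15, TMM scaling, robust quasi-likelihood F test, SE from the fold change and F), which was tested on simulated data. The deposited FPKM values served for levels per gene length and as an alternative. DESeq2 1.42.0, RLE factors, no filter, only the 6 libraries compared, the replicate number as a block and leaving out each library were alternatives. Deviations from group means correlated at 0.27 to 0.54 in 9 same-numbered pairs of libraries and at -0.43 to 0.09 in 18 others, so the numbers were read as pairing the libraries.

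The rule named GPX3, GDF15, KLK6, the 12 largest reductions, the 3 largest and 3 smallest shares in the first step, the 3 highest levels, genes at the limits, the 5 members closest to GPX3 over the 9 libraries by Pearson correlation of log2 CPM (SULF1, SESN2, HERPUD1, GLUD1 and THSD4), list members, families and promoter matches. Other genes named were chosen after their values were seen.

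Lists without members gave these counts called lower and higher with sh76, with sh78 and between hairpins. Counts with the replicate block follow each. For comparison, the fit without a block called 367, 435 and 293 of all 17023 genes lower and 243, 315 and 336 higher. The block called 1828, 1722 and 1467 lower and 1639, 1666 and 1650 higher. NRF2 targets (23 tested) gave 2 and 2, 3 and 0, and 2 and 1 (block: 7 and 5, 9 and 1, 8 and 2). Selenoproteins (20) gave 1 and 0, 1 and 0, and 1 and 1 (block: 6 and 1, 5 and 1, 2 and 2). Secreted protease inhibitors (20) gave 2 and 3, 2 and 1, and 3 and 2 (block: 5 and 3, 5 and 5, 4 and 5). Cholesterol synthesis (23) gave 1 and 1, 0 and 2, and 0 and 1 (block: 3 and 6, 0 and 8, 2 and 8). Interferon-stimulated genes (28) gave 0 and 0, 0 and 11, and 0 and 4 (block: 1 and 6, 0 and 15, 0 and 10). Mitotic cell cycle (20) gave 0 and 3, 0 and 3, and 0 and 0 (block: 0 and 8, 0 and 9, 0 and 2). Epithelial junction genes (21) gave 1 and 0, 2 and 1, and 0 and 2 (block: 6 and 3, 8 and 2, 4 and 2).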

Additional observations from a re-analysis of the deposited data

How the results depend on the processing

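The number of members depended on the limits: a log2 limit of 0.2 gave 88 genes and one of 0.6 gave 28. Leaving out 1 library in turn gave 57 to 76, with 46 to 49 of the 49 among them, an overlap that the rule nearly fixes. TMM-scaled CPM gave 52 genes, 45 of them shared with the 49, and deposited FPKM gave 51, 44 of them shared. With the replicate block, 36 members were called lower with sh76 in place of 19 and 41 between the hairpins in place of 16. The block called 109, 139 and 82 genes of the lists with sh76, with sh78 and between the hairpins, in place of 44, 69 and 23. Leaving out 1 library in turn gave 4 to 21 members called with sh76, 43 to 49 with sh78 and 10 to 19 between the hairpins. Over all genes these fits called 157 to 400, 261 to 459 and 141 to 358 lower in the same order. The direction of the members' median fold changes is fixed by the rule and says nothing of stability, and their size moved by less than the spread of same-numbered pairs of libraries under each alternative run. ELMO3, LDLRAD1 and TMEM231 were no longer called with sh78 when only the 6 libraries compared were fitted. Members near 3 CPM rest on fewer than 100 counts per library, which limits the precision of MYEOV, RYR2 and LDLRAD1.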
